A study of Mus musculus with 9 samples.

Results

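Among the circRNAs recovered with HuD from the mouse striatum, 33 came from 24 host genes that encode protein kinases, protein phosphatases, their regulatory subunits or a lipid kinase subunit. They were chosen by name from the 2 tables in which the study lists circRNAs over 1.5-fold above a control in HuD RIP, so their enrichment is the basis of the choice and not a finding. Every listed circRNA was taken whose host gene symbol starts with 1 of 17 kinase or phosphatase prefixes (Mapk, Map2k, Map3k, Map4k, Cdk, Camk, Prk, Csnk, Stk, Mark, Dyrk, Pik3, Pip4k, Pip5k, Ppp, Ptp and Dusp), with Cdk17 left out. Only 8 of the 17 prefixes had a listed circRNA, and none started with Map2k, Map3k, Map4k, Stk, Dyrk, Pip4k, Pip5k, Ptp or Dusp. The 33 circRNAs are part of 737 listed circRNAs from 548 host genes, and 21 of the 33 are in both tables, 8 in the IgG table alone and 4 in the WT table alone.

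RNA immunoprecipitation (RIP) recovers the RNA that is bound, directly or within a complex, to a protein caught by an antibody. HuD RIP used a myc-tag antibody on adult striatum of HuD-OE mice, which carry a myc-tagged HuD transgene under the Camk2a promoter and were backcrossed to C57BL/6J. WT RIP used the same antibody on wild-type striatum, where no myc-tagged protein is made. IgG RIP is described in the methods as nonimmune IgG on HuD-OE striatum, although the antibody label of these samples also names the myc-tag antibody. Each group has 3 separate RIP assays on tissue pooled from 3 mice. The paper does not make clear whether each assay had its own pool. Replicates therefore differ as pools do, or as repeated assays of the same pool do, and not as single mice. HuD RIP reports on the striatal cells in which the Camk2a promoter drives the transgene, and which cells these are was not determined here. Recovery by the antibody, binding to HuD and abundance in the tissue cannot be told apart in these arrays, nor can fewer cells of a type and less RNA per cell.

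HuD, encoded by Elavl4, belongs to the Hu family of neuronal RNA-binding proteins, which bind AU-rich and U-rich elements and stabilize many of their target mRNAs. CircRNAs arise when a downstream splice donor joins an upstream acceptor in the same pre-mRNA, and the closed ring carries a back-splice junction that the linear mRNA lacks. Kinases and phosphatases set the phosphorylation of receptors, channels and transcription factors in striatal neurons, where dopamine acts through cAMP and PKA, and glutamate through calcium, CaM kinases, calcineurin and the MAP kinases. A circRNA of such a gene need not report on the level of its mRNA or protein.

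Each array probe reads a back-splice junction, and the 60-base junction sequences below are those deposited with the probes, on the strand of the RNA. Positions are as the deposited tables give them, without a statement of whether the start counts from 0 or 1, and all 33 circRNAs lay inside the named gene on GRCm38.p6. The first set is shown because HuD is known for AU-rich elements and these are the 4 of 33 junctions (12.1%) with ATTTA, the core of such elements, here in capitals. Among the other 704 listed circRNAs, 35 (5.0%) had ATTTA in the junction sequence.
Ppp1cb circRNA 38400 (chr5:32480689-32486032, + strand): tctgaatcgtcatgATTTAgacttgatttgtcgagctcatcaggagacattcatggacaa
Mapk10 circRNA 39064 (chr5:102963466-103058392, - strand): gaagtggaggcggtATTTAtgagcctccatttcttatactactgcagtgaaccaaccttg
Prkacb circRNA 36278 (chr3:146737933-146748047, - strand): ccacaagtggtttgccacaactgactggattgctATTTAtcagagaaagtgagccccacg
Cdk14 circRNA 014228 (chr5:5092957-5103854, - strand): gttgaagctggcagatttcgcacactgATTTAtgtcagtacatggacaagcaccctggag
All 4 come from different host genes. The ATTTA lies at the same place in the Ppp1cb and Mapk10 junction sequences, and further along in those of Prkacb and Cdk14.

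U-rich runs were searched for in the same way, as TTTTT and TGTTT, on the RNA strand only. TTTTT occurred in 1 of 33 junctions (3.0%) against 26 of 704 (3.7%), and TGTTT in 1 of 33 (3.0%) against 46 of 704 (6.5%). No junction of the 33 held more than 1 of the motifs. The capitals mark TTTTT in the first and TGTTT in the second sequence.
Camk2d circRNA 36123 (chr3:126796837-126798280, + strand): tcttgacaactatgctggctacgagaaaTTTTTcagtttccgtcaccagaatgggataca
Ppp6c circRNA 33430 (chr2:39204832-39206717, - strand): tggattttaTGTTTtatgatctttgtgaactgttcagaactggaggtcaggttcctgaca
The T content of the junctions had a median of 23.3% in the 33 and of 23.3% in the other listed circRNAs. These are the bases around a junction and not the whole ring, so an absent motif says only that the letters are not in this window.

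Another pair is shown because the probes share sequence. Ppp1cb circRNAs 018676 and 38398 start at the same base and end at different ones, and the capitals mark the 30 bases that both junction sequences contain.
Ppp1cb circRNA 018676 (chr5:32478065-32491189, + strand): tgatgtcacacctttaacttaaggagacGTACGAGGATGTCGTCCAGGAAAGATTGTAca
Ppp1cb circRNA 38398 (chr5:32478065-32487705, + strand): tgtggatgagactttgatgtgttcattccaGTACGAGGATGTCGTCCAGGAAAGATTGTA
How much RNA of one ring binds the probe of the other was not tested. In every other pair from the same gene the longest shared stretch was 9 bases or shorter.

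The last set has no capitals, since none of these junctions holds a searched motif. It gives the remaining circRNAs of Mapk10, whose 3 rings differed in recovery, and the strongly recovered circRNAs of Prkacb and Prkar1a.
Mapk10 circRNA 39065 (chr5:102989619-103038688, - strand): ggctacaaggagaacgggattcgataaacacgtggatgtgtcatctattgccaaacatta
Mapk10 circRNA 39062 (chr5:102926071-102966628, - strand): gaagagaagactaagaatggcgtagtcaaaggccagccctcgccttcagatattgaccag
Prkacb circRNA 36280 (chr3:146755631-146757768, - strand): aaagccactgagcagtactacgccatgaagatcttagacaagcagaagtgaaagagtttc
Prkar1a circRNA 24406 (chr11:109662948-109665986, + strand): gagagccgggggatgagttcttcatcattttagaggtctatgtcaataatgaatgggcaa
The 3 Mapk10 junctions share no stretch longer than 5 bases.

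The 9 arrays differed in brightness with the groups. The 75th percentile of the log2 signal lay between 3.49 and 5.46 with HuD, between 2.35 and 3.51 for WT, and between 2.04 and 2.42 for IgG. Probes well above background made up 43.7% to 73.9%, 25.4% to 44.6% and 21.7% to 26.3% of all probes, respectively. Values below are log2 signals minus the 75th percentile of their array, called scaled log2 signals, and compare the same probe between arrays. Every one of the 33 circRNAs was well above background on all 3 HuD RIP arrays. These arrays alone therefore sufficed for each to pass the filter for testing (well above background on at least 3 of 9 arrays). On the IgG RIP arrays 22 of the 33 were well above background on no array, and 9 of the 33 on no control array at all. The first WT RIP array was the brightest control, with 24 of the 33 well above background against 7 and 9 on the other two. On the second and the third WT RIP array, 14 and 7 of the 33 stood at the lowest value that the array gives (-2.33 and -2.80), where values have no order. Among all 14330 non-control probes, 6043 and 4996 stood at that value. Striatal and other cell markers could not be checked, because a name is given only for listed circRNAs and just 2 of 24 marker genes, Bcl11b among them, had 1 each.

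The question put to the arrays was which circRNAs are recovered with HuD above both controls. Of the 33 circRNAs, 24 were called higher with HuD than in the WT control (limma, adjusted p under 0.05), and percent called among all 6871 tested probes was 12.4%. Against IgG RIP 27 of the 33 were called higher (14.2% of all tested probes), and 24 were called higher than both controls (9.88% of all tested probes). The 33 were selected on these contrasts, so their counts stand beside the background without a reading. Over WT RIP the 33 had a median log2 fold change of 2.39 and over IgG RIP one of 2.13, where the median of all tested probes was -0.36 and -0.29. Among the other 704 listed circRNAs, chosen in the same way, the medians were 2.14 and 2.18, and 69.3% were called higher than both controls, against 72.7% of the 33. In 23 of the 33 even the lowest HuD RIP signal exceeded the highest of the 6 control signals, which was so for 12.5% of all tested probes.

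**Figure D1:**
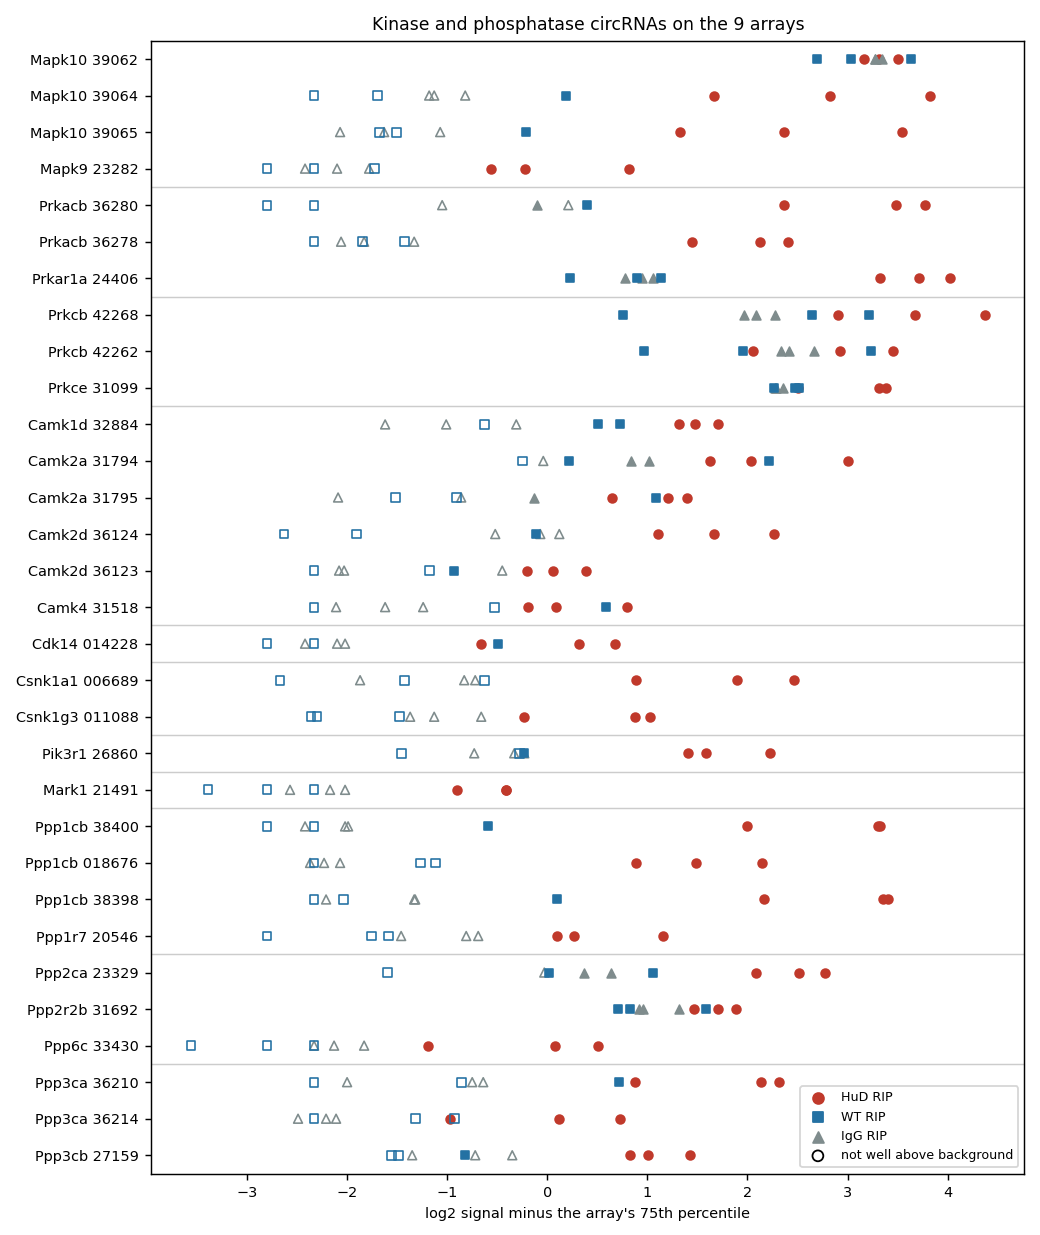
Scaled log2 signal (x axis) of 31 of the 33 circRNAs (1 row each, named by host gene and circRNA number, grouped by role) on the 9 arrays, with open symbols where the probe was not well above background. In 21 rows the 3 HuD RIP circles lie to the right of all 6 control symbols. They do not in the rows of Mapk10 39062, Prkce, Camk4, Cdk14, Ppp2r2b, Ppp3ca 36214, both Prkcb circRNAs and both Camk2a circRNAs.

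The count of calls moved with the processing, and the cause was not tested. The share of all tested probes called under each of these settings is not given. Whether the 33 moved differently from other probes was therefore not tested. With normexp background correction 8 of the 33 were called higher than both controls, and with array brightness as a covariate 1 was, Prkacb circRNA 36278. Among the 6 circRNAs well above background on all 9 arrays, tested alone with the probes of that kind, 2 were called higher than both controls, Prkar1a circRNA 24406 and Prkcb circRNA 42268. Leaving out the first or the third HuD RIP array left 14 calls over both controls, leaving out the first or the third IgG RIP array left 15, and leaving out the bright first WT RIP array gave 29.

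The arrays also differed in their place on the slide. The 3 WT RIP arrays and HuD RIP array 1 shared row 1 of slide 1. HuD RIP arrays 2 and 3 shared row 2 of that slide with IgG RIP arrays 1 and 2. IgG RIP array 3 was grouped apart from the other arrays, as slide 2. Whether this grouping matches the physical slides, and whether slide 2 held arrays outside this series, was not tested. Within the first row, the HuD RIP array was above all 3 WT RIP arrays for 30 of the 33 circRNAs (33.3% of all tested probes), with a median difference of 2.95 in scaled log2 signal. Within the second row, both HuD RIP arrays were above both IgG RIP arrays for 32 of the 33 (27.2% of all tested probes), with a median difference of 2.04. With the row as a block, 10 of the 33 were called higher than both controls, and with the slide as a block 15, without a share over all tested probes to set beside them.

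The rank of a probe within its array does not depend on scaling. Among all tested probes of an array, the median percentile of the 33 was 89.5, 76.6 and 85.5 in HuD RIP, 41.8, 18.9 and 22.2 in WT RIP, and 30.7, 21.3 and 25.9 in IgG RIP. In the control arrays 6 of the 33 ranked in the upper part, over the 50th percentile, on all 6, and 16 ranked under it on all 6.

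**Figure D2:**
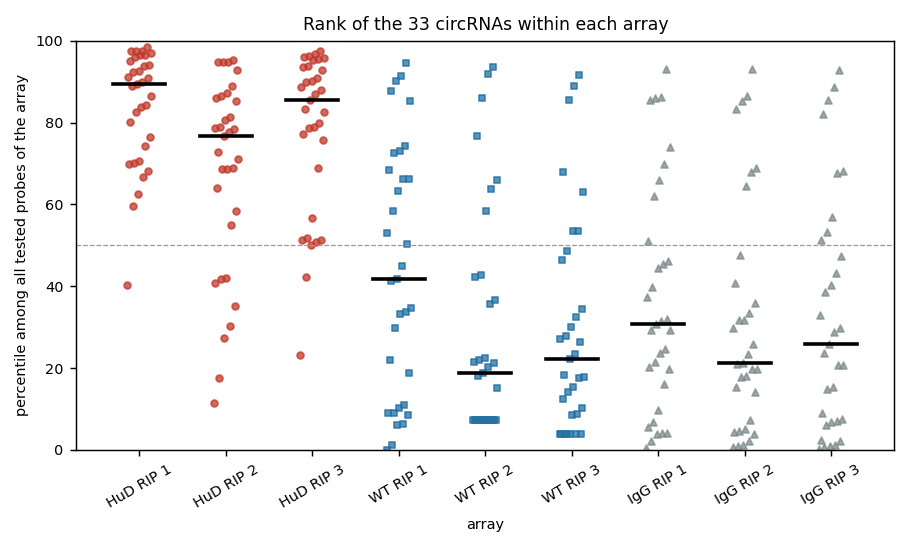
Percentile of each of the 33 circRNAs among all tested probes of an array (y axis, 0 to 100) on each of the 9 arrays (x axis), with the median as a black bar. The medians are 76.6 to 89.5 in HuD RIP and 18.9 to 41.8 in the controls, and the rows of equal values on the second and the third WT RIP array are probes at the lowest value of the array.

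The MAP kinases pass signals from receptors to the nucleus, and 4 circRNAs of Mapk10 and Mapk9 are described. In 3 of the 4 every HuD RIP array exceeded every control, and those 3 were called higher than both controls. Beside this count and those of the families below, 69.3% of the other 704 listed circRNAs were called higher than both controls. The families are small and were chosen from the same lists, so their counts are a description. Mapk10 encodes JNK3, the neuronal member of the JNK stress kinases, and its 3 circRNAs did not behave alike. Mapk10 circRNA 39064 gave 3.82, 1.67 and 2.82 in HuD RIP, 0.19, -2.33 and -1.70 in WT RIP, and -0.82, -1.18 and -1.13 in IgG RIP. For circRNA 39065 the signals were 3.54, 1.33 and 2.36 in HuD RIP, -0.21, -1.68 and -1.51 in WT RIP, and -1.07, -1.63 and -2.07 in IgG RIP. Both were higher on every HuD RIP array than on any control, and the first HuD RIP array was the highest for both. Against WT RIP their log2 fold changes were 4.05 (SE 0.65) and 3.54 (SE 0.58). No IgG RIP array was well above background for either, and the signal in HuD RIP was at least 7.05-fold and at least 5.49-fold that in IgG RIP. For such bounds, dim arrays were set no lower than the lowest signal that was well above background. The bounds, here and below, hold for the mean scaled signals only. In the deposited normalized values the folds over IgG RIP were smaller, 4.53 and 4.03.

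The signals of Mapk10 circRNA 39062 were 3.16, 3.31 and 3.50 in HuD RIP, 2.69, 3.63 and 3.03 in WT RIP, and 3.27, 3.34 and 3.27 in IgG RIP. The groups overlapped on all sides, and the highest of the 9 values was a WT RIP array. Its log2 fold change was 0.21 (SE 0.37) over WT RIP and 0.03 (SE 0.37) over IgG RIP, the smallest of the 33, and it was called against neither. With normexp background correction it was 0.89 over WT RIP, where the median of the 33 was 0.84. This ring was well above background on all 9 arrays. In the deposited normalized values, on which it was listed against WT RIP, it stood at 1.52-fold, just inside the threshold of 1.5.

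Mapk9 encodes JNK2, and circRNA 23282 of this gene was dim. It gave 0.82, -0.56 and -0.22 in HuD RIP and -1.73 or less on all 6 control arrays, none of which was well above background. The groups did not overlap, and HuD RIP was at least 1.71-fold WT RIP and at least 1.04-fold IgG RIP.

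PKA, the cAMP-dependent kinase, is the main effector of dopamine D1 receptor signalling, and its 3 circRNAs came from the catalytic subunit gene Prkacb and the regulatory subunit gene Prkar1a. In all 3 the HuD RIP arrays lay above all 6 controls and the call was higher against both. Prkacb circRNA 36278, one of the 4 with ATTTA in the junction, had signals of 2.13, 1.45 and 2.40 in HuD RIP, -1.43, -2.33 and -1.85 in WT RIP, and -1.33, -2.06 and -1.83 in IgG RIP. It was well above background on no control array, and HuD RIP was at least 6.77-fold WT RIP and at least 4.12-fold IgG RIP. With limma it was called higher than both controls under every alternative of scaling, filter, covariate, block or left-out array, 20 for each control, whereas the methods' t-test after adjustment called none of the 33 against WT RIP.

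Prkacb circRNA 36280 gave 3.77, 2.36 and 3.48 in HuD RIP, 0.40, -2.33 and -2.80 in WT RIP, and -0.10, -1.05 and 0.21 in IgG RIP. The WT RIP arrays were far apart, with the second and the third at their lowest value. Its log2 fold change was 4.78 (SE 0.73) over WT RIP and 3.52 (SE 0.73) over IgG RIP.

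Prkar1a circRNA 24406 was the best measured of the strongly recovered circRNAs, well above background on all 9 arrays. Its signals were 3.71, 3.32 and 4.02 in HuD RIP, 1.14, 0.90 and 0.23 in WT RIP, and 1.06, 0.78 and 0.95 in IgG RIP. The lowest HuD RIP array stood more than 2 log2 units above the highest control. The log2 fold change was 2.93 (SE 0.39) over WT RIP and 2.75 (SE 0.39) over IgG RIP, which are 7.61-fold and 6.73-fold. With limma it was called in 21 of 21 alternatives against WT RIP and in 20 of 21 against IgG RIP.

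PKC, the kinase family activated by diacylglycerol, had 3 circRNAs of Prkcb and Prkce, and none was called against either control in the fit over all 6871 tested probes. Prkcb circRNA 42268 had signals of 4.37, 2.90 and 3.67 in HuD RIP, 3.21, 0.76 and 2.64 in WT RIP, and 2.27, 2.09 and 1.97 in IgG RIP. HuD RIP lay above all IgG RIP arrays, whereas the first WT RIP array was above the second HuD RIP array. Prkcb circRNA 42262 gave 2.06, 3.45 and 2.92 in HuD RIP, 1.96, 3.23 and 0.97 in WT RIP, and 2.33, 2.41 and 2.66 in IgG RIP, and overlapped with both controls.

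The log2 fold changes of the 2 Prkcb circRNAs were 1.44 (SE 0.59) and 0.76 (SE 0.55) against WT RIP and 1.53 (SE 0.59) and 0.35 (SE 0.55) against IgG RIP. Prkce circRNA 31099 gave 2.50, 3.31 and 3.38 in HuD RIP and between 2.26 and 2.51 on the 6 control arrays. Its first HuD RIP array fell within the controls, and its log2 fold change was 0.65 (SE 0.37) over WT RIP and 0.76 (SE 0.37) over IgG RIP. All 3 PKC circRNAs were well above background on all 9 arrays.

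The calcium and calmodulin-dependent kinases had the most circRNAs, 6 of 4 genes. Against IgG RIP 5 of the 6 were called higher, and against WT RIP 2 of the 6, both from Camk2d, of which circRNA 36124 kept the call in 18 of 20 limma alternatives and circRNA 36123 in 6. Among the other 704 listed circRNAs, 82.8% were called higher than IgG RIP and 74.9% higher than WT RIP. Log2 fold changes ran from 0.99 to 3.23 against WT RIP (median 1.51) and from 1.60 to 2.49 against IgG RIP (median 1.86). Camk2a encodes the alpha subunit of CaMKII, the abundant kinase of excitatory synapses, and its promoter is the one that drives the transgene in HuD-OE mice. The part of the transgene in the Camk2a values was not tested.

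Camk2a circRNA 31794 gave 3.00, 1.63 and 2.04 in HuD RIP, 2.21, -0.25 and 0.22 in WT RIP, and 0.84, 1.02 and -0.04 in IgG RIP. For Camk2a circRNA 31795 the signals were 1.40, 0.65 and 1.21 in HuD RIP, 1.09, -1.52 and -0.91 in WT RIP, and -0.13, -2.09 and -0.86 in IgG RIP. In both, HuD RIP lay above IgG RIP on every array and overlapped with WT RIP through the bright first WT RIP array. The log2 fold changes against WT RIP were 1.5 (SE 0.62) and 1.53 (SE 0.66), and against IgG RIP 1.62 (SE 0.62) and 2.11 (SE 0.66), with only the last called higher.

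Camk2d encodes the delta subunit of CaMKII. Its circRNA 36124 was the only one of the 33 classed as sense overlapping, where the other 32 are exonic. It gave 2.26, 1.11 and 1.67 in HuD RIP, -0.11, -1.91 and -2.63 in WT RIP, and -0.07, -0.52 and 0.12 in IgG RIP, with a log2 fold change of 3.23 (SE 0.58) against WT RIP and HuD RIP at least 3.12-fold IgG RIP. Camk2d circRNA 36123, with TTTTT in the junction, gave 0.39, -0.20 and 0.06 in HuD RIP, -0.93, -2.33 and -1.18 in WT RIP, and -0.45, -2.08 and -2.03 in IgG RIP. Neither overlapped with a control, though the first IgG RIP array of circRNA 36123 came close to its second HuD RIP array.

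The remaining 2 of the group were Camk1d, a CaMKI isoform, and Camk4, the nuclear CaM kinase that phosphorylates CREB. Camk1d circRNA 32884 lay above all 6 controls on all 3 HuD RIP arrays, with a log2 fold change of 1.30 (SE 0.47) against WT RIP, which was not called. The signal in HuD RIP was at least 2.93-fold that in IgG RIP. Camk4 circRNA 31518 overlapped with the first WT RIP array, had a log2 fold change of 0.99 (SE 0.63) against WT RIP, and its HuD RIP signal was at least 1.22-fold that in IgG RIP. With array brightness as a covariate its log2 fold changes were -0.54 and -0.38.

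**Figure D3:**
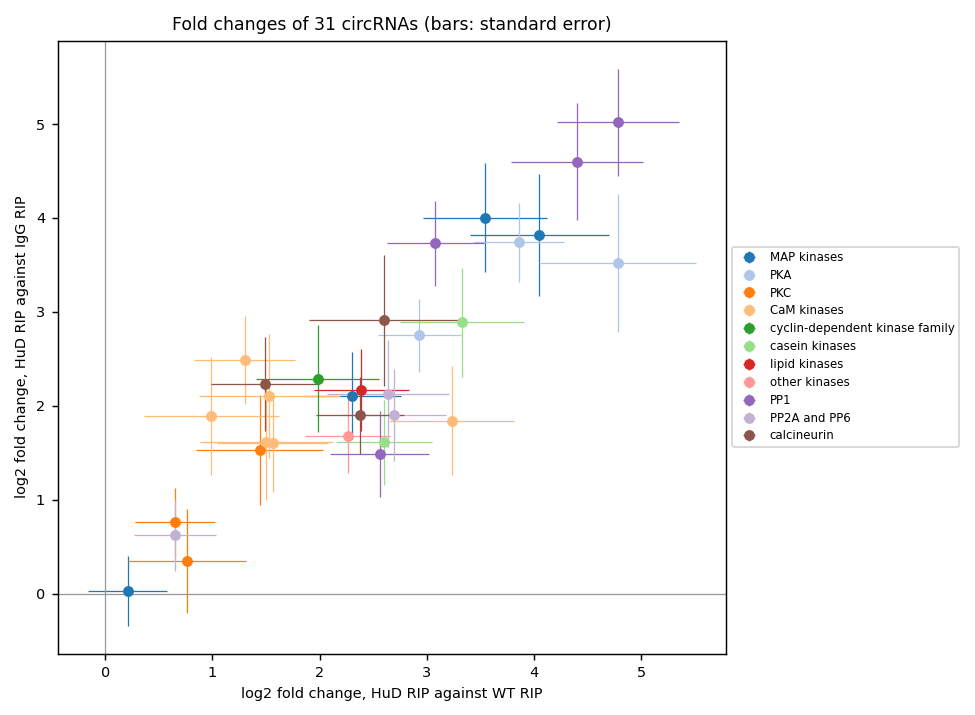
Fitted log2 fold change of 31 of the 33 circRNAs in HuD RIP against WT RIP (x axis) and against IgG RIP (y axis), coloured by role, with bars of 1 standard error. Both axes share the HuD RIP arrays, and the values run from 0.21 to 4.78 and from 0.03 to 5.02, with Ppp1cb, Prkacb and Mapk10 at the upper right and Prkcb, Prkce, Ppp2r2b and Mapk10 circRNA 39062 at the lower left.

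Casein kinases are constitutively active kinases with broad substrates, and both of their circRNAs were called higher than both controls. Csnk1a1 circRNA 006689 gave 2.46, 0.89 and 1.90 in HuD RIP, -1.43, -0.63 and -2.67 in WT RIP, and -0.83, -0.72 and -1.87 in IgG RIP. No control array was well above background, and HuD RIP was at least 5.71-fold WT RIP and at least 3.48-fold IgG RIP. Csnk1g3 circRNA 011088 was dimmer, at least 2.50-fold WT RIP and at least 1.52-fold IgG RIP.

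Cdk14, of the cyclin-dependent kinase family, had 1 circRNA. This circRNA, 014228, carried ATTTA in the junction and had a log2 fold change of 1.98 (SE 0.57) against WT RIP and a signal at least 1.12-fold that in IgG RIP. Its lowest HuD RIP array (-0.66) was below the first WT RIP array (-0.49), and it was called against WT RIP in 9 of 20 limma alternatives. Pik3r1, the regulatory subunit of PI3-kinase, and Mark1, a kinase of microtubule-associated proteins, had 1 circRNA each that lay above all 6 controls. Pik3r1 circRNA 26860 had a log2 fold change of 2.39 (SE 0.44) against WT RIP and was at least 3.45-fold IgG RIP, whereas the dim Mark1 circRNA 21491 was at least 1.14-fold WT RIP, with no bound above 1 against IgG RIP.

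Protein phosphatase 1 had 4 circRNAs from 2 genes, all of them called higher than both controls. Ppp1cb encodes its beta catalytic subunit, and all 3 of its circRNAs lay above all 6 controls and were called higher than both. Ppp1cb circRNA 38400, with ATTTA in the junction, gave 3.32, 2.0 and 3.30 in HuD RIP, -0.59, -2.33 and -2.80 in WT RIP, and -2.42, -1.99 and -2.02 in IgG RIP. For Ppp1cb circRNA 38398 the signals were 3.35, 2.17 and 3.40 in HuD RIP, 0.10, -2.33 and -2.04 in WT RIP, and -1.32, -2.21 and -1.33 in IgG RIP. The second HuD RIP array was the lowest of its group for both, and 2 of the 3 WT RIP arrays were not well above background.

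The log2 fold changes against WT RIP were 4.78 (SE 0.57) for circRNA 38400 and 4.40 (SE 0.62) for circRNA 38398, and HuD RIP was at least 7.56-fold and at least 8.11-fold IgG RIP. Ppp1cb circRNA 018676 gave 2.15, 0.89 and 1.49 in HuD RIP, -1.27, -2.33 and -1.12 in WT RIP, and -2.37, -2.23 and -2.07 in IgG RIP. It was well above background on no control array, and HuD RIP was at least 4.81-fold WT RIP and at least 2.94-fold IgG RIP. Ppp1r7, a regulatory subunit of the same phosphatase, had 1 circRNA, 20546, which lay above all 6 controls and was at least 2.41-fold WT RIP and at least 1.47-fold IgG RIP.

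Protein phosphatases 2A and 6 had 3 circRNAs, and 2 were called higher than both controls. Ppp2ca, the catalytic subunit of phosphatase 2A, had circRNA 23329 with log2 fold changes of 2.64 (SE 0.57) against WT RIP and 2.13 (SE 0.57) against IgG RIP and no overlap with the controls. Ppp6c circRNA 33430, with TGTTT in the junction, was dim and at least 1.48-fold WT RIP, with no bound above 1 against IgG RIP. Ppp2r2b encodes a neuronal regulatory subunit of phosphatase 2A, and its circRNA 31692 gave 1.89, 1.47 and 1.71 in HuD RIP, 0.83, 1.59 and 0.71 in WT RIP, and 1.32, 0.96 and 0.92 in IgG RIP. Here the second WT RIP array was above the second HuD RIP array, and the log2 fold changes of 0.65 (SE 0.38) and 0.62 (SE 0.38) were called against neither control.

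Calcineurin, the calcium-activated phosphatase that opposes PKA in striatal neurons, had 3 circRNAs of its catalytic subunit genes Ppp3ca and Ppp3cb, all called higher than both controls. Ppp3ca circRNA 36210 gave 2.31, 0.88 and 2.14 in HuD RIP, 0.72, -2.33 and -0.86 in WT RIP, and -0.75, -0.64 and -2.0 in IgG RIP. The second HuD RIP array was only just above the first WT RIP array. Its log2 fold change against WT RIP was 2.60 (SE 0.70), and HuD RIP was at least 3.54-fold IgG RIP.

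Ppp3ca circRNA 36214 gave 0.73, -0.97 and 0.12 in HuD RIP, -1.32, -2.33 and -0.93 in WT RIP, and -2.49, -2.21 and -2.11 in IgG RIP. Its second HuD RIP array was below the third WT RIP array, and with no control well above background HuD RIP was at least 1.65-fold WT RIP and at least 1.01-fold IgG RIP. Ppp3cb circRNA 27159 lay above all 6 controls, with a log2 fold change of 2.38 (SE 0.41) against WT RIP and at least 2.21-fold over IgG RIP. Against WT RIP it was called in 20 of 20 limma alternatives, whereas Ppp3ca circRNA 36210 was called in 12 and circRNA 36214 in 5 of the 20.

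Since circRNAs of the same gene share their pre-mRNA, the difference between their signals on the same array was compared across groups. A scaling factor of the array does not alter this difference, but background correction can. In 7 genes with more than 1 listed circRNA there were 11 pairs, and in 3 pairs the HuD RIP arrays lay apart from all 6 controls. The Mapk10 pairs among them share circRNA 39062. The circRNAs were chosen on these same arrays, so the count is a description, and the share among pairs of other listed circRNAs was not determined. The signal of Mapk10 circRNA 39062 minus that of circRNA 39064 was -0.65, 1.64 and 0.68 in HuD RIP, 2.50, 5.95 and 4.73 in WT RIP, and 4.10, 4.52 and 4.40 in IgG RIP. Against circRNA 39065 the difference was -0.37, 1.98 and 1.14, then 2.90, 5.30 and 4.54, then 4.34, 4.97 and 5.34 in the same order. The mean of each difference in HuD RIP minus that in WT RIP was -3.84 and -3.33 log2 units, and minus that in IgG RIP -3.79 and -3.96. The control signals of circRNAs 39064 and 39065 were not well above background on 2 of 3 WT RIP arrays and on every IgG RIP array. With normexp background correction the 3 rings were closer. Their log2 fold changes over WT RIP were then 0.89 for circRNA 39062, 1.65 for circRNA 39064 and 1.42 for circRNA 39065.

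Between Mapk10 circRNAs 39064 and 39065 the difference was 0.28, 0.34 and 0.46 in HuD RIP, and the controls ranged from -0.65 to 0.93 around it. In Ppp1cb, circRNA 38400 minus circRNA 018676 was 1.16, 1.11 and 1.81 in HuD RIP and at most 0.68 in the controls. There circRNA 018676 was well above background on no array and circRNA 38400 only on the first WT RIP array. Differences between signals that are not well above background do not measure how the rings compare, so this separation may reflect the dim controls and was not tested further. The other 8 pairs overlapped with the controls, including both circRNAs of Camk2a, Camk2d, Ppp3ca, Prkacb and Prkcb.

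**Figure D4:**
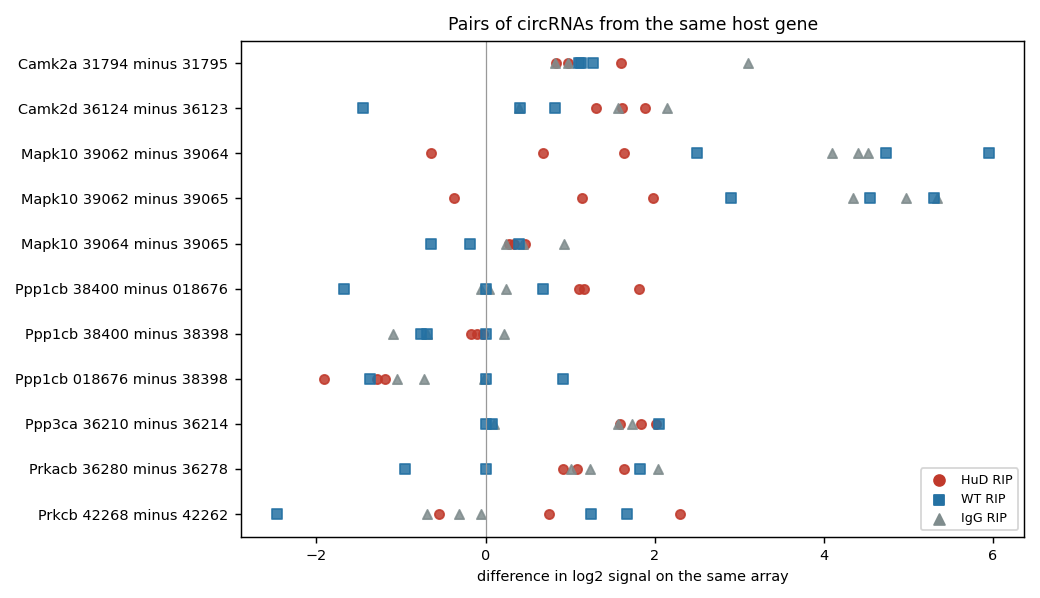
Difference in log2 signal between 2 circRNAs of the same host gene on the same array (x axis) for the 11 pairs (rows), with 1 symbol per array. The HuD RIP circles of the upper pair of Mapk10 rows lie between -0.65 and 1.98, and all control symbols there lie between 2.50 and 5.95.

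The rings of a gene differ in place. Mapk10 circRNA 39065 (49069 bases of genome) lies wholly inside circRNA 39064 (94926 bases), whereas circRNA 39062 overlaps with circRNA 39064 over 3162 bases (7.8% of the shorter) and with circRNA 39065 not at all. Since the gene is on the minus strand, circRNA 39062 is the most downstream ring. Ppp1cb circRNA 38400 (5343 bases) lies inside both other rings of its gene. The 2 Ppp3ca rings overlap over 18815 bases (65.0% of the shorter), and those of Camk2a, Camk2d, Prkacb and Prkcb do not overlap.

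**Figure D5:**
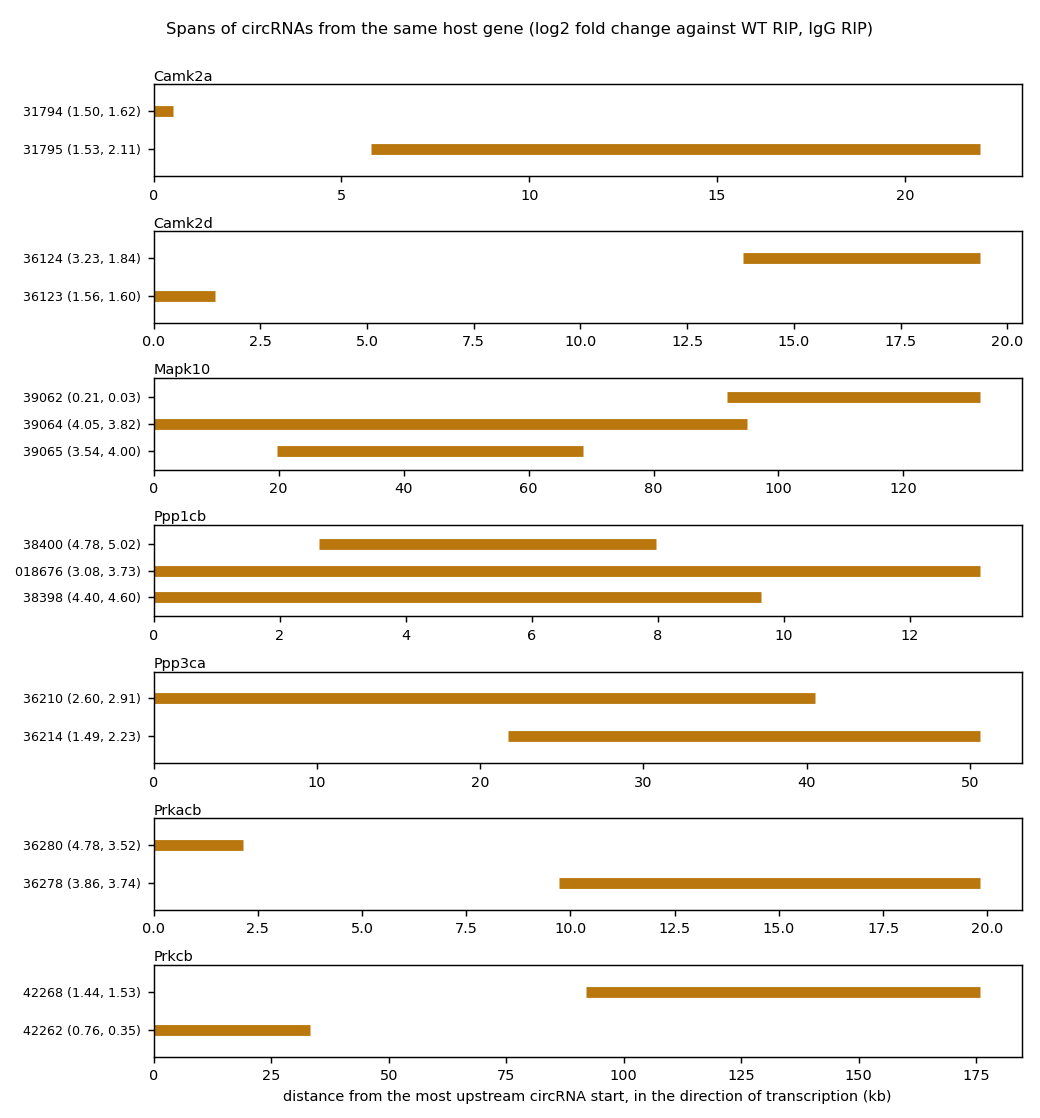
Genomic spans of the circRNAs of the 7 host genes with more than 1 (bars, 1 panel per gene), as distance in kb from the most upstream start in the direction of transcription. The numbers after each circRNA are its fitted log2 fold changes against WT RIP and IgG RIP, such as 0.21 and 0.03 for the most downstream Mapk10 ring and 4.05 and 3.82 for the longest one.

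The controls were compared with each other to show how far they differ for the same circRNAs. None of the 33 was called in WT RIP against IgG RIP with limma, where percent called among all tested probes was 0.0146% (1 of 6871), and 4 of the 33 had an unadjusted p under 0.05 against 393 of 6871. The methods' t-test gave 0 after adjustment and 1 at an unadjusted p under 0.05. The median log2 fold change of the 33 was -0.02 and that of all tested probes -0.05, with 16 of the 33 above 0. Values ran from -1.40 for Camk2d circRNA 36124 to 1.19 for Camk1d circRNA 32884. Control values entered the choice of the 33, so this comparison too is a description.

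Some properties were not used in the choice. The 33 circRNAs span 516 to 94926 bases of genome with a median of 10897, against a median of 10351 in the other 704. Exonic circRNAs made up 97.0% of the 33 and 86.9% of the others. Of the 24 host genes, 7 (29.2%) had more than 1 listed circRNA, against 26.3% of the 524 other host genes. The tables also name up to 5 miRNAs per circRNA, predicted by the array maker to pair with it. The 2 miRNAs named for 3 of the 33 are shown with the seed (bases 2 to 8) in capitals, from RefSeq on GRCm38.p6.
mmu-miR-29b-2-5p: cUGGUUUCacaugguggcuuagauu
mmu-miR-3547-5p: gUGGGAAGagggguggggcccggga
The first was named for all 3 Ppp1cb circRNAs, which overlap and so share sequence, and for 6 of the other 704. The second was named for 3 circRNAs of Camk2d and Mapk10 and for 3 of the other 704. The complement of neither seed occurs in the 60-base junction of any of the 33.

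Kinase, phosphatase and related signalling genes outside the prefixes were looked up from a list of 89 genes. Of these, 19 had a listed circRNA, 28 circRNAs in all, and 17 of the 28 were called higher than both controls, again with the tables as their source (69.3% of the 704 listed circRNAs other than the 33 and 9.88% of all tested probes were so called). They had a median log2 fold change of 2.04 over WT RIP and of 2.12 over IgG RIP. The 3 circRNAs of Gsk3b, a kinase inhibited by Akt, had 4.43, 2.97 and 4.23 against WT RIP and 3.82, 2.22 and 3.63 against IgG RIP. Those of Fyn, a Src family tyrosine kinase, had 0.83 and 1.40 against WT RIP and were not called there.

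At the edge of the listing threshold of 1.5-fold, the deposited normalized values put Mark1 circRNA 21491 at 1.5-fold against IgG RIP and Mapk10 circRNA 39062 at 1.52-fold against WT RIP, just inside it. A circRNA just outside it has no name in the tables, so its value is not given here. The largest folds on that scale were 6.13 for Prkacb circRNA 36280 against WT RIP and 6.25 for Ppp1cb circRNA 38398 against IgG RIP.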

How the data were processed

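RNA from 9 immunoprecipitations (3 each of HuD RIP, WT RIP and IgG RIP, grouped by the sample labels) was measured on one-colour circRNA arrays. Linear RNA was removed with RNase R and the remainder labelled with Cy3 by the company that ran the arrays for the authors. Signals were extracted, per the file headers, by Feature Extraction 11.0.1.1. Among the deposited intensity values, the processed signal is background-subtracted and not normalized between arrays. The authors' deposited tables give log2 values normalized by a method not given in the sources used here, with limma named in their processing notes without a role, and their p-values and fold changes were not used. A further 20 value columns of these tables (raw intensities and group means) were not used.

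CircRNAs were found by host gene symbol, and the circRNAs and gene lists were chosen with earlier results of these data known. Each has 1 spot per array. Spots flagged as outliers (269 values) were left out, and from the log2 signals the 75th percentile of the array was subtracted, taken over its 14330 non-control probes. The 6871 probes that exceeded background clearly on 3 arrays or more were fitted with limma 3.58.1 (lmFit, eBayes) in R 4.3.3, with 1 mean per group, 6 residual and 6.42 prior degrees of freedom, Benjamini-Hochberg adjustment over all tested probes and a call at adjusted p under 0.05. No p is printed for a single circRNA, since the lists were built on the same contrasts. Bounds ("at least") set each dim array at the higher of its own value and the lowest signal well above background. They compare means of the scaled signals and are not confidence limits, and other processing gave smaller folds for some circRNAs. The script was tested on simulated data. Per-array values are given for the 10 circRNAs with the largest smaller-of-2 fold change among those above all controls, the 3 with the smallest, those of genes with more than 1 circRNA, and those of Prkacb, Ppp3ca, Camk2a and Prkcb. HuD RIP values of Mapk9 and Prkce circRNAs were added after their values were seen. The number of arrays limits the precision. Junction sequences on chromosome 18 and the single values of 2 circRNAs are not reported here, and the counts and medians over the 33 include both. Transcripts of 31 circRNAs matched the RefSeq gene table of GRCm38.p6, and without a genome the exact junction within the 60 bases was not located.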

Additional observations from a re-analysis of the deposited data

How the results depend on the processing

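Against WT RIP, 24 circRNAs were called in the design as stated, and 8 with normexp background correction, 2 (of 6) when a probe had to be well above background everywhere, 0 with the methods' t-test adjusted, and 7 with array brightness as a covariate. Against IgG RIP, 27 became 12, 2, 8 and 1 under the same 4 settings, 17 with the slide and 10 with the row on the slide as a block. Against both, 24 became 8, 2, 0 and 1, and 15 and 10 under the 2 blocks. For the adjusted t-test count of 0, the same test unadjusted and over 1.5-fold gave 22 against WT RIP. Leaving out 1 array gave 19 to 29 calls against WT RIP, 16 to 29 against IgG RIP (16 without the third HuD RIP array, 17 without the third IgG RIP array) and 14 to 29 against both. WT RIP against IgG RIP had 0 calls throughout, and 1 by the unadjusted t-test over 1.5-fold. No circRNA of the 33 was called lower in HuD RIP in any of the 23 alternative fits. For none of these settings is the share of all tested probes given, so the counts do not tell the 33 from other probes.

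The median log2 fold change against WT RIP (2.39) moved to 3.89 without scaling, 0.84 with normexp, 0.71 with only probes above background on all 9 and 1.23 (25 circRNAs) in the authors' normalized values. Against IgG RIP (2.13) it moved to 2.94 with the percentile taken over probes clear of background on every array, 4.35 without scaling, 0.83 with normexp, 0.69 with only probes above background on all 9, 1.02 with array brightness and 1.18 (29 circRNAs) in the authors' values. Leaving out 1 array gave 2.28 to 2.62 and 1.98 to 2.39. The median of WT RIP against IgG RIP (-0.02) changed sign to 0.18 with quantile normalization, 0.08 with the percentile taken over probes clear of background and 0.70 without scaling, and ran from -0.38 to 0.21 with 1 array left out. Without scaling the median of all tested probes was 1.13 over WT RIP and 1.93 over IgG RIP, and relative to it the 33 stood 2.75 and 2.42 higher, as in the design as stated. The cause of these shifts was not tested, apart from the fewer circRNAs in the settings so described.

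Single circRNAs changed sign with array brightness as a covariate: Camk2a circRNA 31794 to -0.10 and -0.76, Prkcb circRNA 42268 to -0.11 and -0.77, Camk4 circRNA 31518 to -0.54 and -0.38 (WT RIP, IgG RIP), and Camk2d circRNA 36124 to -0.03 against IgG RIP. Mark1 circRNA 21491 went to -0.01 against IgG RIP with normexp background correction. Mapk10 circRNA 39062 went to -0.06 against IgG RIP with the median of each array and to -0.06 without the third HuD RIP array (-0.06 to 0.11 with 1 array left out).

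Replicate numbers are shared between groups. Same-numbered HuD RIP and WT RIP arrays had correlated deviations from their group means for numbers 1 and 2 (0.65 and 0.56) but not 3 (-0.10). For HuD RIP and IgG RIP the values were 0.10, 0.05 and 0.06. With 3 arrays per group, whether the numbers pair the samples cannot be told from these values. With the replicate block 28 circRNAs were called against WT RIP, 29 against IgG RIP and 28 against both, with 0 between the controls, again without a share over all tested probes.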
